A study of Sus scrofa with 37 samples.

Results

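Genes that copy DNA in the S phase of the cell cycle were followed in injured pig skeletal muscle from 4 to 48 h after contusion. They were chosen as 46 symbols of DNA replication and S-phase genes, of which 38 were found among the 9418 genes of the deposited count table. All 38 passed the filter on low counts and were tested among 9411 genes. The other 8 (MCM5, RRM2, CDC6, CDT1, POLA2, POLE2, PRIM1 and CCNE1) were not analysed here. Levels are CPM, counts scaled to a fixed total by library sizes that were adjusted with the trimmed mean of M-values (TMM), and changes are log2 fold changes with their standard error (SE).

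The study used a contusion model, a blunt injury of muscle, in 8 Bama minipigs, a small pig breed, and read RNA of whole skeletal muscle as 150 bp pairs. There were 9 control libraries and 4 libraries at each of 7 times after injury, every 4 h up to 24 h and then at 48 h. Mechanical damage is the treatment label of the controls as well as of the injured groups, and the sources used here do not say how control muscle was handled. All groups share breed, tissue and treatment label and differ, as far as the labels say, in being control or injured and in the time after injury. The libraries outnumber the animals and the labels do not tie libraries to animals, so each p-value measures only the spread between libraries.

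Replication starts at origins, where the origin recognition complex, CDC6 and CDT1 load the MCM helicase in G1. In S phase CDC45 and the GINS complex join the MCM ring to make the active helicase, and the primase, the replicative polymerases, the PCNA clamp and its loader copy the strands, fed by deoxynucleotide synthesis and followed by chromatin assembly. E2F factors drive the transcription of many of these genes when a cell leaves quiescence. Mature muscle fibres do not replicate their DNA, whereas satellite cells, macrophages, endothelial cells and fibroblasts of injured muscle can. In whole tissue, a change in the number of replicating cells and a change in RNA per cell cannot be told apart.

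Column totals ran from 9.86 to 22.9 M counts, and 3 counts, the limit that a count of 0 allows, corresponded to 0.108 to 0.378 CPM, for counting error only. The table holds only genes that reach at least 101 counts in some library, so the totals are not sequencing depth. CHAF1B, MCM10, TYMS and POLE, with few counts in the controls, entered it only through 24 or 48 h libraries where they were high. E2F1, ORC1, ORC6, GINS1, GINS3, GINS4, TK1 and TIMELESS also reached that limit only in 24 or 48 h libraries. So did CCNE2, which was not called at those times. The counts of members that rose at 24 and 48 h include such genes. The rule thus favours low genes that rose late, and a rise of such genes is partly set by it. Libraries also fell into 5 sets that earlier work on these data had drawn from column totals and from C1QBP, NDUFAF8 and ND6. All 4 libraries of 16 h lay in set 1 with 2 controls, and all 4 of 48 h lay in set 5 with 3 controls. Results at those times are therefore given with same-set controls as well. Sets 2 and 3 held 0 controls. At 24 h 1 library lay in set 2, 2 in set 3 and 1 in set 5, so most had no same-set control. The same held for all libraries of 4 h and for 2 each of 12 and 20 h. The tissue label fitted the counts: the 8 muscle fibre genes tested summed to 79451 to 142970 CPM in the controls. Among markers of other cells, those of macrophages were in the table in full (15 of 15) and those of lymphocytes almost absent from it (1 of 15).

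Few replication genes rose before 16 h, most rose at 20, 24 and 48 h, and the median change was highest at 24 h. A call is an adjusted p under 0.05 in edgeR's quasi-likelihood test with Benjamini-Hochberg adjustment over all genes tested. At 4 h none of the 38 was called (18.3% of all genes were called in either direction). At that time 5 of them had an unadjusted p under 0.05, and DESeq2 and limma-voom also called 0. At 8 h TYMS and CDC45 rose (25.8% of all genes rose) and RRM1, GMNN, CLSPN, CCNE2, RPA2 and BRCA1 fell (28.2% of all genes fell). At 12 h GINS2 and RFC3 rose (16.3%) and none fell (14.7%). At 12 h 4 members with a negative change had an unadjusted p under 0.05, DESeq2 called 3 lower and limma-voom 1 lower.

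At 16 h 11 members rose (25.3% of all genes rose) and RRM1, DUT, CCNE2, RPA2 and BRCA1 fell (27.8% fell), a share of risers near that of all genes. With scaling by column totals in place of TMM, which shifts the median of all genes by 0.35 on the log2 scale, the split at 16 h was 18 higher and 2 lower. At 20 h 23 rose (25.4%) and DUT fell (26.2%). At 24 h 31 rose (26.8%) and DUT fell (27.1%). At 48 h 27 rose (12.8%) and none fell (7.45%). The one further member with an unadjusted p under 0.05 at 48 h was CLSPN, with a positive change, and DESeq2 and limma-voom called 0 lower. The median log2 change of the 38 was -0.02, -0.07 and 0.12 at 4, 8 and 12 h, then 0.48, 0.74, 1.50 and 1.01 at 16, 20, 24 and 48 h. The median of all genes lay between -0.07 and -0.02 at each of these times.

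Over the 7 times together, 37 of the 38 were called (83.2% of all genes were), the exception being RFC2 (adjusted p = 0.0718), which was called at 24 and 48 h taken singly. By time against control, 32 members rose at some time, 7 fell at some time, and RPA2 did both. Shares of all genes were not counted for these totals, nor for the times of first call and largest change that follow. Rises were first called at 8 h in 2 members, whereas 2, 10, 11 and 7 members followed at 12, 16, 20 and 24 h. No member was first called at 48 h: all 27 that rose at 48 h had also been called at 24 h, while GINS3, ORC6, RFC3 and RFC4 were called at 24 h only of the 2 times. The change was largest at 24 h in 25 members and at 48 h in 10. The groups separated fully for few members early and for most at 24 h. All 4 libraries lay above all 9 controls for 1, 1 and 0 members at 4, 8 and 12 h. The shares of all genes there were 2.28%, 13.8% and 6.04%. At 16, 20, 24 and 48 h the counts were 8, 14, 26 and 3, against 17.2%, 14.2%, 16.4% and 1.41% of all genes.

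**Figure D1:**
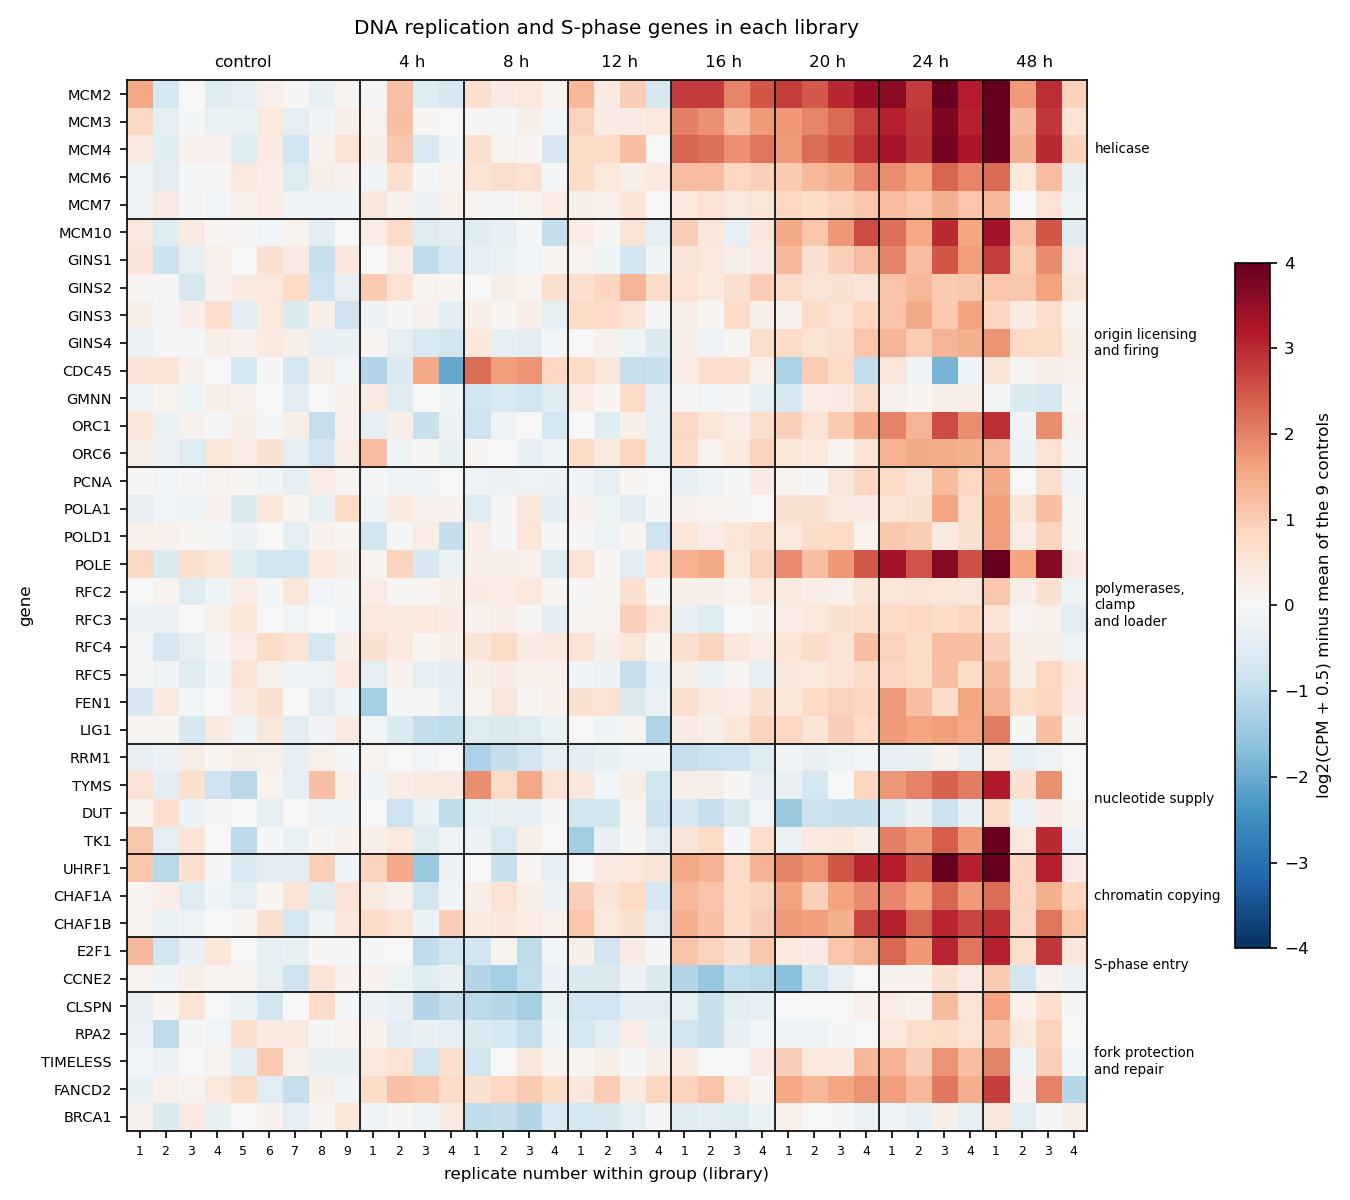
Level of each of the 38 genes (one line per gene, grouped by role) in each of the 37 libraries (columns, by group and replicate number), as log2(CPM + 0.5) minus the mean of the 9 controls, with red for higher and blue for lower. The red field begins at 16 h in MCM2, MCM3 and MCM4, covers most genes at 24 h, and at 48 h is strong in replicates 1 and 3 and weak in replicates 2 and 4.

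The 5 measured subunits of the MCM helicase, the ring that unwinds DNA, rose at 16, 20, 24 and 48 h, but by unequal amounts. MCM2 (chr13:72630378-72651270, Sscrofa11.1) was at 1.19 to 7.54 CPM (median 2.20) in the controls, at 18.4, 18.7, 10.0 and 14.8 CPM at 16 h, at 32.8, 18.4, 43.7 and 23.4 CPM at 24 h and at 43.4, 8.33, 20.5 and 4.64 CPM at 48 h. MCM3 (chr7:46084648-46104425) was at 1.64 to 4.56 CPM (median 2.07) in the controls, 10.9, 9.58, 6.34 and 8.66 CPM at 16 h, 24.0, 19.8, 37.3 and 23.3 CPM at 24 h and 47.5, 6.46, 19.6 and 3.67 CPM at 48 h. MCM4 (chr4:79674737-79686964) was at 1.54 to 4.71 CPM (median 3.48) in the controls, 17.1, 15.8, 12.0 and 15.1 CPM at 16 h, 34.0, 26.1, 49.7 and 32.9 CPM at 24 h and 56.5, 9.17, 27.6 and 6.08 CPM at 48 h. For all 3 genes every library of 16 and 24 h lay above every control. At 48 h the same held for MCM4, whereas replicate 4 lay inside the control range for MCM2 and MCM3. The log2 changes of MCM2, MCM3 and MCM4 were 2.57 ± 0.43, 1.84 ± 0.38 and 2.23 ± 0.37 at 16 h (adjusted p = 1.75e-05, 0.000168 and 1.61e-05). At 20 h they were 3.00 ± 0.43, 2.38 ± 0.37 and 2.51 ± 0.37 (adjusted p = 2.14e-06, 6.7e-06 and 3.17e-06). The 24 h changes reached 3.50 ± 0.43, 3.40 ± 0.37 and 3.47 ± 0.37 (adjusted p = 1.64e-07, 2.25e-08 and 1.52e-08), and those at 48 h were 2.89 ± 0.43, 2.97 ± 0.37 and 2.96 ± 0.37 (adjusted p = 3.09e-05, 3.1e-06 and 3.1e-06). With set 1 controls, MCM2 at 16 h had a log2 change of 1.83 (adjusted p = 0.0532) and was no longer called.

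MCM6 (chr15:15923638-15978587), which sits in the same ring, was at 12.1 to 23.0 CPM (median 17.9) in the controls, 64.8, 52.8, 90.6 and 68.5 CPM at 24 h and 86.2, 23.4, 41.7 and 14.1 CPM at 48 h. Replicate 4 of 48 h lay inside the control range, replicate 2 just above it and the others well above. Its log2 change was 1.07 ± 0.26 at 16 h, 1.95 ± 0.26 at 24 h and 1.22 ± 0.26 at 48 h (adjusted p = 0.00131), and 0.56 at 48 h without replicate 1 (adjusted p = 0.174). MCM7 (chr3:8005890-8014047) was at 22.1 to 31.8 CPM (median 23.7) in the controls, 61.0, 55.3, 68.9 and 55.3 CPM at 24 h and 64.4, 25.0, 38.6 and 21.8 CPM at 48 h, where replicates 1 and 3 lay above the controls, replicate 2 among them and replicate 4 below. Its log2 change was 0.46 ± 0.17 at 16 h, 1.23 ± 0.17 at 24 h (adjusted p = 7.32e-07) and 0.55 ± 0.17 at 48 h (adjusted p = 0.0223). MCM2, MCM3 and MCM4 thus changed by 10.5 to 11.3-fold at 24 h, MCM6 by 3.87-fold and MCM7 by 2.34-fold. The difference between subunits was not tested. MCM7 overlaps AP4M1 in the RefSeq annotation of Sscrofa11.1, and MCM4 overlaps LOC102164310, and no strand setting of the counting is stated, so reads of overlapping genes could not be assigned to one of them here.

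**Figure D2:**
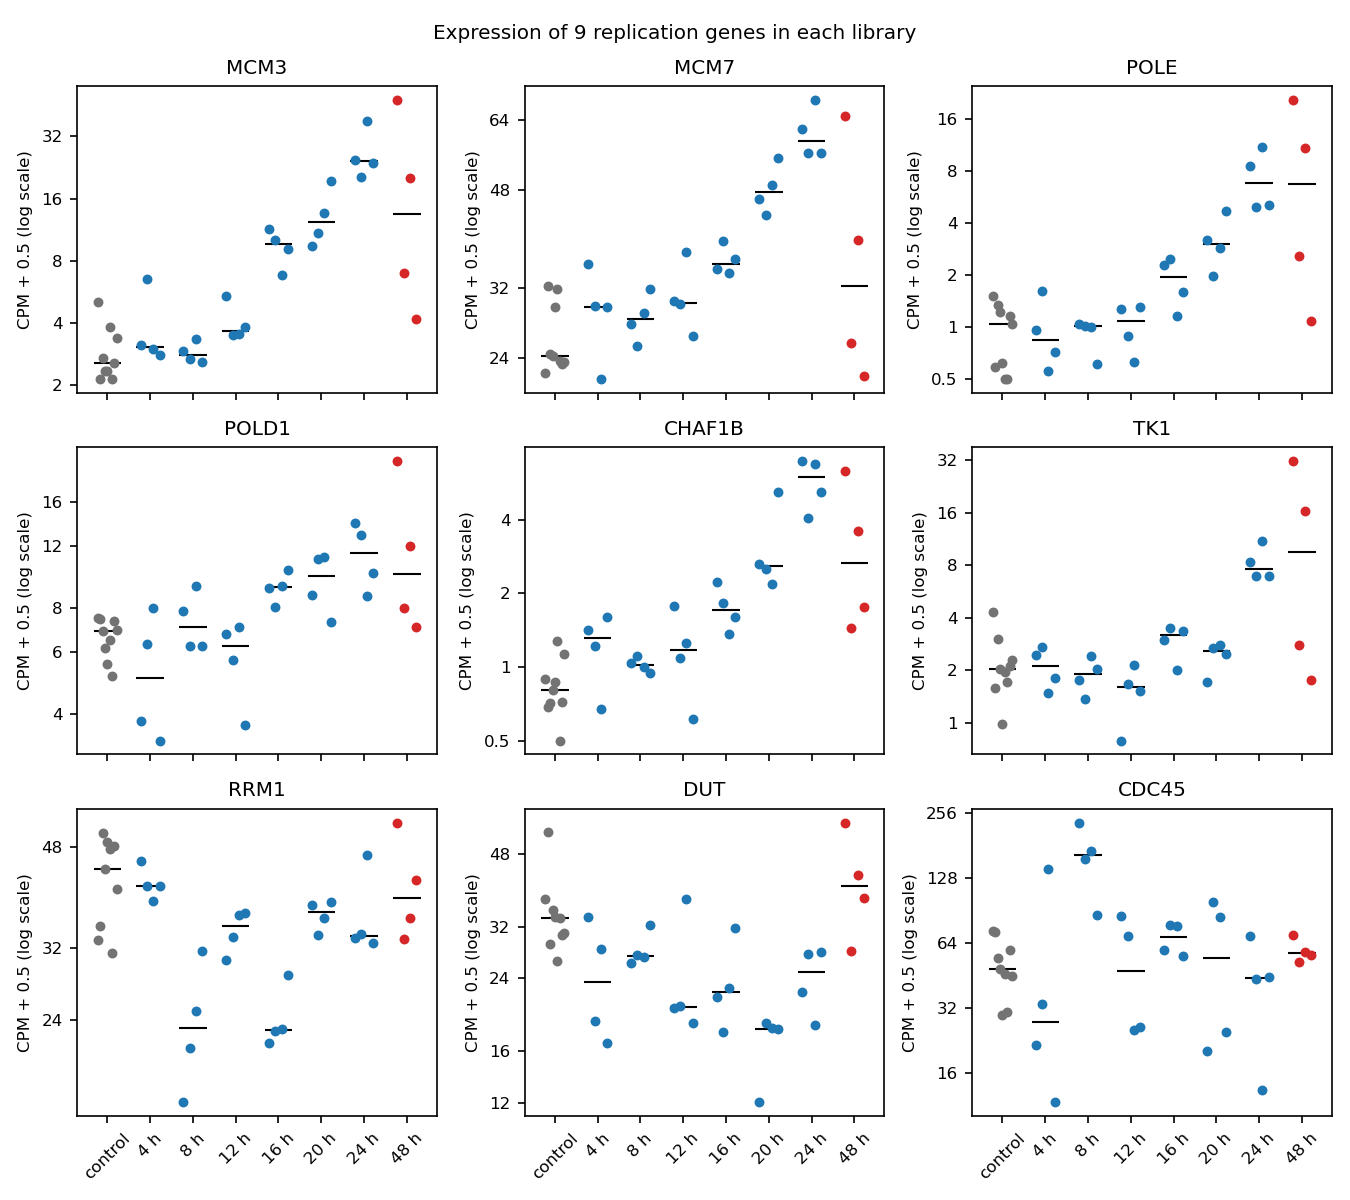
CPM + 0.5 on a log scale for 9 genes, one point per library, by group (grey controls, blue 4 to 24 h, red 48 h), with a line at each group's median and a separate scale in each panel. MCM3 reaches 19.8 to 37.3 CPM at 24 h from 1.64 to 4.56 CPM in controls, whereas MCM7 and POLD1 change less, RRM1 and DUT have low times, and CDC45 is highest at 8 h.

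Of the 9 measured genes of origin licensing and firing, 6 rose at 20 h, 7 at 24 h and 5 at 48 h, and none fell at these times. MCM10, a factor that helps the helicase to start, had 2 to 10 counts per control library. It was at 0.183 to 0.786 CPM (median 0.492) in the controls, 3.91, 2.31, 7.08 and 2.38 CPM at 24 h and 9.13, 1.67, 4.86 and 0.193 CPM at 48 h. Its 48 h replicate 4 had the value of a low control and the other 3 lay above all controls. The log2 change was 2.61 ± 0.56 at 20 h, 2.98 ± 0.55 at 24 h and 3.04 ± 0.55 at 48 h (adjusted p = 0.000245). ORC1 (chr6:159819302-159852306), the largest subunit of the origin recognition complex, was at 0.217 to 1.41 CPM (median 1.05) in the controls, 4.92, 3.04, 7.86 and 4.47 CPM at 24 h and 9.99, 0.729, 4.48 and 1.06 CPM at 48 h. Replicates 2 and 4 of 48 h lay inside the control range. Its log2 change was 2.45 ± 0.43 at 24 h and 2.16 ± 0.44 at 48 h (adjusted p = 0.000781), and 1.19 at 48 h without replicate 1 (adjusted p = 0.117). ORC6, the smallest subunit of that complex, was at 1.41 to 4.49 CPM (median 3.38) in the controls, 8.18, 8.95, 8.72 and 8.21 CPM at 24 h and 7.48, 2.29, 4.40 and 2.90 CPM at 48 h. It rose at 24 h (1.53 ± 0.30, adjusted p = 7.91e-05), and its 48 h change of 0.55 ± 0.31 was not called (adjusted p = 0.22).

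The 4 GINS subunits, which tie MCM and CDC45 together, all rose at 20 and 24 h. GINS1 was at 0.870 to 3.42 CPM (median 2.46) in the controls, 9.55, 5.50, 13.9 and 7.60 CPM at 24 h and 16.9, 4.69, 8.95 and 2.70 CPM at 48 h. GINS4 was at 0.870 to 1.76 CPM (median 1.19) in the controls, 3.91, 3.01, 4.00 and 4.21 CPM at 24 h and 5.58, 2.50, 2.39 and 1.64 CPM at 48 h. For both genes all 24 h libraries lay above all controls, and 48 h replicate 4 lay inside the control range. Their log2 changes at 48 h were 1.90 ± 0.35 and 1.28 ± 0.30 (adjusted p = 0.000298 and 0.00275). Without 48 h replicate 1, GINS4 changed by 0.78 (adjusted p = 0.144). GINS2 differed in its timing: it was at 3.59 to 12.1 CPM (median 7.39) in the controls and already at 11.0, 12.7, 18.2 and 11.7 CPM at 12 h, where it rose by 0.89 ± 0.23 (adjusted p = 0.00431). GINS2 was at 15.7, 17.8, 14.7 and 14.8 CPM at 24 h and 15.4, 14.8, 21.7 and 9.85 CPM at 48 h, and its change there was 1.13 ± 0.23 and 1.10 ± 0.23 (adjusted p = 0.000113 and 0.000949). It overlaps GSE1. GINS3 was at 0.453 to 2.25 CPM (median 1.47) in the controls, 3.18, 4.33, 3.00 and 4.68 CPM at 24 h and 2.57, 1.67, 2.16 and 1.35 CPM at 48 h, and its rise of 1.58 ± 0.29 at 24 h (adjusted p = 4.28e-05) was followed by 0.61 ± 0.31 at 48 h (adjusted p = 0.162), which was not called.

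CDC45 (chr14:51133111-51158604), the helicase cofactor, did not follow its partners. It was at 29.3 to 71.9 CPM (median 48.0) in the controls and at 230, 156, 169 and 85.7 CPM at 8 h, all 4 above every control. It rose at 8 h by 1.67 ± 0.44 (adjusted p = 0.00199). Libraries of a time lay far apart: 21.0, 33.0, 140 and 11.3 CPM at 4 h, 19.9, 98.4, 83.9 and 24.2 CPM at 20 h and 68.4, 43.1, 12.9 and 44.1 CPM at 24 h. At 48 h it was at 68.8, 51.8, 57.9 and 55.6 CPM, all inside the control range, with a log2 change of 0.22 ± 0.46 (adjusted p = 0.783). GMNN, which encodes geminin, the inhibitor of relicensing, was at 11.4 to 18.1 CPM (median 15.8) in the controls and 8.67, 9.98, 8.65 and 10.8 CPM at 8 h, all below every control. It fell at 8 h by 0.71 on the log2 scale (adjusted p = 0.00389). At 24 h GMNN was at 17.4, 16.3, 18.2 and 18.8 CPM and at 48 h at 14.7, 10.4, 9.65 and 16.2 CPM, and its changes there, 0.18 ± 0.19 and -0.29 ± 0.20, were not called (adjusted p = 0.438 and 0.315).

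All 10 measured genes of the replicative polymerases, clamp and clamp loader rose at 24 h, and 8 of them at 48 h. POLE (chr14:22798146-22852818), the catalytic subunit of the leading-strand polymerase epsilon, showed the largest change of any member. It was at 0 to 1.02 CPM (median 0.543) in the controls, with 0 to 13 counts per library, at 8.11, 4.44, 10.6 and 4.57 CPM at 24 h and at 20.1, 2.08, 10.4 and 0.579 CPM at 48 h. All 24 h libraries and 48 h replicates 1, 2 and 3 lay above every control, and replicate 4 lay inside the control range. At 16, 20, 24 and 48 h its log2 change was 1.58 ± 0.68, 2.54 ± 0.65, 3.90 ± 0.63 and 4.18 ± 0.63 (adjusted p = 0.0485, 0.00159, 7.24e-06 and 3.07e-05). POLE overlaps LOC110256847. POLD1, the catalytic subunit of the lagging-strand polymerase delta, was at 4.61 to 6.99 CPM (median 6.39) in the controls, 13.4, 12.4, 8.15 and 9.54 CPM at 24 h and 20.4, 7.50, 11.5 and 6.57 CPM at 48 h. POLA1, the catalytic subunit of the polymerase that makes primers with primase, was at 4.06 to 11.2 CPM (median 5.75) in the controls, 9.55, 9.97, 19.7 and 10.5 CPM at 24 h and 20.8, 9.27, 15.3 and 6.86 CPM at 48 h. Their log2 changes were 0.83 ± 0.23 and 0.91 ± 0.24 at 24 h and 0.92 ± 0.23 and 0.99 ± 0.24 at 48 h (adjusted p at 48 h = 0.00603 and 0.00442). The fold at 24 h was therefore 14.9 for POLE, 1.78 for POLD1 and 1.88 for POLA1, a difference that was not tested, with POLE near the counting limit in the controls.

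PCNA (chr17:14137746-14142584), the sliding clamp, was at 17.4 to 27.7 CPM (median 23.0) in the controls, 38.9, 32.9, 54.2 and 39.9 CPM at 24 h and 64.7, 22.0, 35.4 and 20.3 CPM at 48 h. Every 24 h library lay above every control, and 48 h replicates 2 and 4 did not. Its log2 change was 0.88 ± 0.19 at 24 h and 0.66 ± 0.20 at 48 h (adjusted p = 0.000331 and 0.0154). The loader subunits RFC2, RFC3, RFC4 and RFC5, which open the clamp, rose at 24 h by 0.48 ± 0.16, 0.83 ± 0.16, 1.01 ± 0.22 and 0.95 ± 0.20. At 48 h RFC2 was at 42.4, 23.3, 30.2 and 16.8 CPM against 13.9 to 27.1 CPM (median 18.9) in the controls, and RFC5 at 10.9, 5.31, 8.41 and 6.18 CPM against 3.04 to 6.89 CPM (median 4.07), and both rose (adjusted p = 0.0226 and 0.00838). RFC3 was at 10.5, 8.02, 8.34 and 5.21 CPM at 48 h against 6.12 to 10.2 CPM (median 7.12), and RFC4 at 15.1, 9.27, 9.26 and 6.47 CPM against 4.46 to 13.0 CPM (median 7.28), and neither was called there (adjusted p = 0.597 and 0.324). RFC3 moved up and down between times: it was at 7.91, 7.79, 14.4 and 10.8 CPM at 12 h, where it rose (0.48 ± 0.17, adjusted p = 0.0303), at 5.79, 4.89, 7.13 and 7.56 CPM at 16 h and at 13.0, 13.2, 12.3 and 13.4 CPM at 24 h. The 12 h call of RFC3 was lost without 12 h replicate 3 (0.27, adjusted p = 0.248) or replicate 4 (0.45, adjusted p = 0.0727). It was also lost with column totals, limma-voom, the 5 library sets or only the groups compared in the fit (adjusted p = 0.0568 to 0.339). RFC4 overlaps EIF4A2, RFC5 overlaps WSB2 and RFC3 overlaps LOC102159559.

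Okazaki fragments are processed by the flap nuclease FEN1 and sealed by the ligase LIG1, and both genes rose from 20 h on. FEN1 was at 2.36 to 6.35 CPM (median 3.96) in the controls, 13.9, 9.68, 7.00 and 13.0 CPM at 24 h and 11.2, 6.77, 7.56 and 5.21 CPM at 48 h. LIG1 was at 3.14 to 7.13 CPM (median 5.48) in the controls, 17.9, 16.2, 17.4 and 15.9 CPM at 24 h and 22.6, 4.90, 12.6 and 5.60 CPM at 48 h. All 24 h libraries of both genes lay above all controls, and their 48 h replicate 4 lay inside the control range. The log2 changes at 24 h were 1.40 ± 0.25 and 1.67 ± 0.27 (adjusted p = 2.91e-05 and 6.78e-06), and those at 48 h 0.91 ± 0.26 and 1.11 ± 0.27 (adjusted p = 0.0124 and 0.00417).

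**Figure D3:**
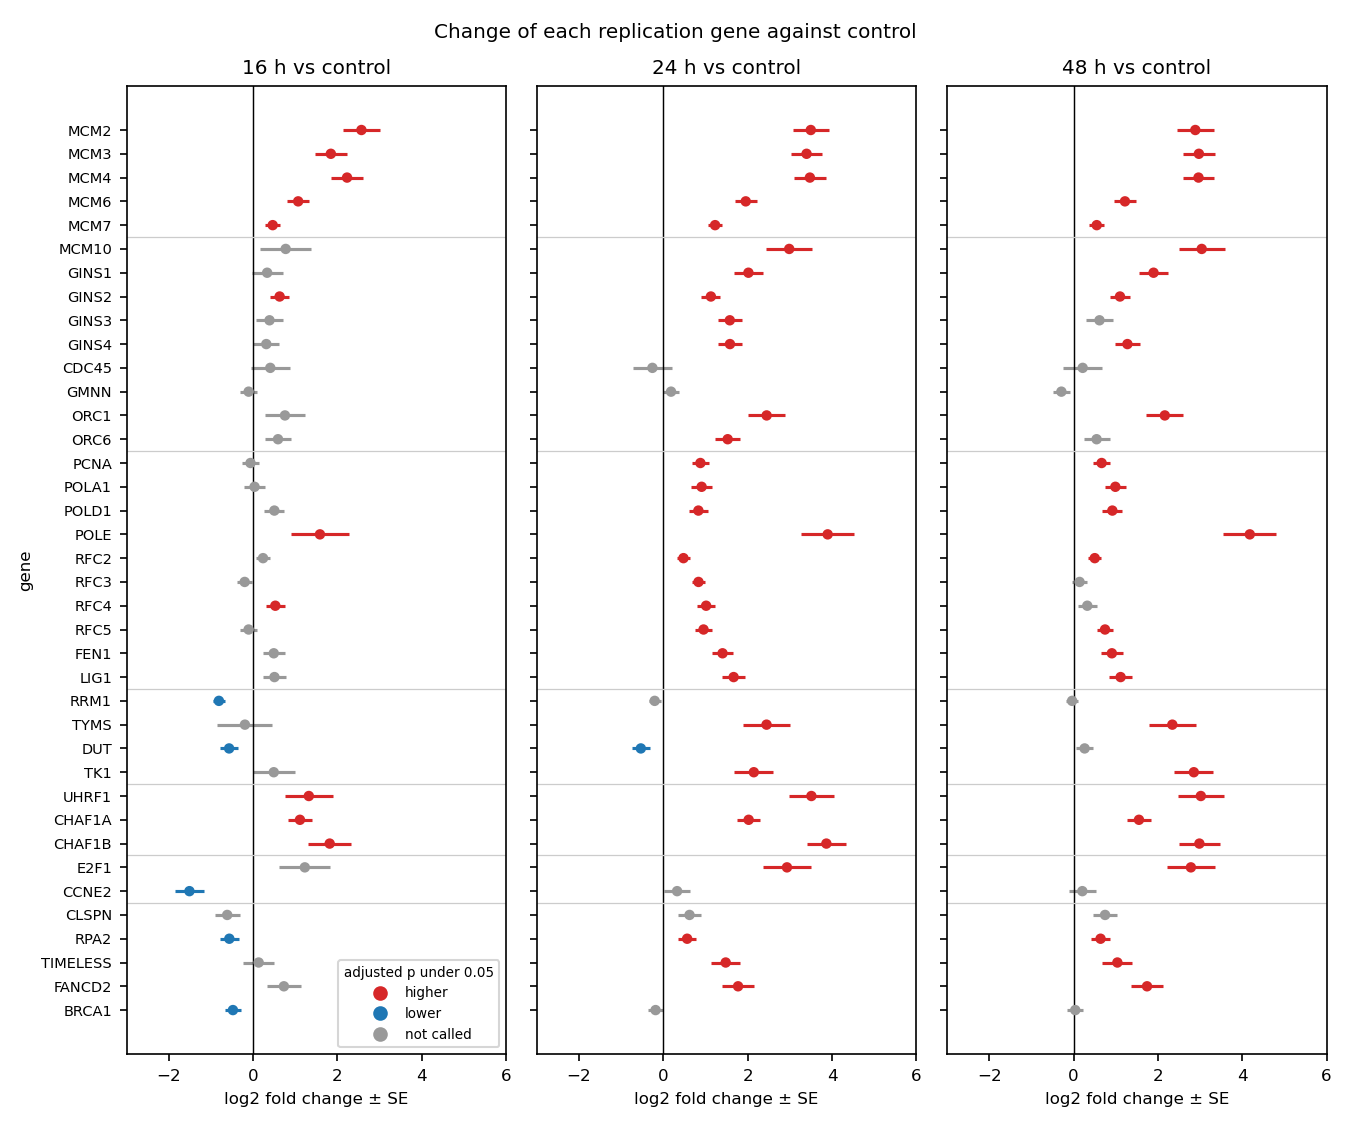
Log2 fold change against control (x axis) with its SE as a horizontal line for each of the 38 genes (y axis, grouped by role) at 16, 24 and 48 h, in red or blue where the gene was called higher or lower. At 24 h 31 genes are red and DUT is blue. At 16 h 11 are red and 5 are blue, and at 48 h 27 are red.

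The 4 measured genes of deoxynucleotide supply split into a pair that rose and a pair that did not. TK1 (chr12:3785997-3794824), the thymidine kinase of the salvage pathway, was at 0.492 to 3.85 CPM (median 1.54) in the controls, 1.21, 2.18, 2.31 and 2.00 CPM at 20 h, 7.89, 6.42, 10.5 and 6.45 CPM at 24 h and 31.1, 2.29, 15.8 and 1.26 CPM at 48 h. The 20 h libraries lay inside the control range, those of 24 h above it, and at 48 h replicates 1 and 3 lay above it and replicates 2 and 4 inside. The TK1 log2 change was 0.14 ± 0.51, 2.14 ± 0.47 and 2.85 ± 0.46 at 20, 24 and 48 h (adjusted p = 0.842, 0.000292 and 6.89e-05). TYMS (chr6:105642730-105660279), which makes thymidylate, had 0 to 18 counts per control library and was at 0 to 1.96 CPM (median 0.684). It was at 3.34, 1.30, 2.60 and 1.10 CPM at 8 h and 0.373, 0.155, 0.559 and 1.42 CPM at 20 h. Later it was at 3.04, 3.70, 5.00 and 3.89 CPM at 24 h and 9.20, 1.15, 3.32 and 0.579 CPM at 48 h. TYMS rose at 8 h by 1.55 ± 0.59, at 24 h by 2.45 ± 0.55 and at 48 h by 2.34 ± 0.56 (adjusted p = 0.0259, 0.000463 and 0.00361), and was not called at 12, 16 or 20 h.

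RRM1 (chr9:6026151-6065211), the large subunit of ribonucleotide reductase, was at 30.9 to 50.2 CPM (median 43.4) in the controls, 16.8, 21.0, 24.4 and 31.1 CPM at 8 h and 21.4, 22.5, 22.7 and 28.2 CPM at 16 h. All 4 libraries of 16 h and 3 of 8 h lay below every control, the lowest control being 30.9 CPM. It fell at 8 and 16 h by 0.83 and 0.81 on the log2 scale (adjusted p = 3.49e-05 and 5.5e-05). It was at 32.9, 33.4, 46.0 and 32.1 CPM at 24 h and 52.4, 32.7, 35.7 and 41.5 CPM at 48 h, with changes of -0.21 ± 0.15 and -0.04 ± 0.15 that were not called (adjusted p = 0.236 and 0.893). DUT (chr1:123451207-123462267), the dUTPase that keeps uracil out of DNA, was at 26.0 to 53.9 CPM (median 33.2) in the controls, 21.2, 17.3, 22.3 and 31.2 CPM at 16 h, 11.6, 18.3, 17.7 and 17.6 CPM at 20 h, 21.7, 27.0, 18.0 and 27.3 CPM at 24 h and 56.6, 27.4, 42.2 and 37.0 CPM at 48 h. All 20 h libraries lay below every control, and those of 48 h spanned the control range and above. DUT fell at 16, 20 and 24 h by 0.57, 1.06 and 0.53 on the log2 scale (adjusted p = 0.0258, 0.000207 and 0.0347), and its 48 h change was 0.26 ± 0.21 (adjusted p = 0.392). The 16 and 24 h calls of DUT were lost with scaling by column totals (changes of -0.21 and -0.06, adjusted p = 0.479 and 0.839) and without control replicate 2 (-0.46 and -0.43, adjusted p = 0.0562 and 0.0763). They were also lost without replicate 1, 2 or 3 of 16 h (-0.44 to -0.55, adjusted p = 0.0578 to 0.117) and without replicate 1 or 3 of 24 h (-0.50 and -0.42, adjusted p = 0.0787 and 0.127). With the 5 library sets in the fit the 24 h call of DUT was lost too (-0.69, adjusted p = 0.0534). DUT overlaps LOC102161909.

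The 3 genes that restore chromatin behind the fork rose at 16, 20, 24 and 48 h. CHAF1B (chr13:200048096-200074902) and CHAF1A (chr2:74380706-74411875) encode subunits of chromatin assembly factor 1, which deposits histones on new DNA. CHAF1B was at 0 to 0.781 CPM (median 0.307) in the controls, with 0 to 8 counts per library, at 1.72, 1.33, 0.858 and 1.10 CPM at 16 h, 6.44, 3.56, 6.29 and 4.68 CPM at 24 h and 5.82, 0.938, 3.09 and 1.26 CPM at 48 h. CHAF1A was at 1.88 to 4.53 CPM (median 3.13) in the controls, 8.14, 7.05, 5.55 and 5.91 CPM at 16 h, 12.7, 9.94, 16.9 and 10.7 CPM at 24 h and 15.6, 5.73, 8.80 and 5.79 CPM at 48 h. These 2 genes and MCM4 were the members whose 4 libraries of 48 h all lay above all 9 controls. At 16, 20, 24 and 48 h CHAF1B changed by 1.81 ± 0.50, 2.89 ± 0.48, 3.86 ± 0.46 and 2.98 ± 0.48 on the log2 scale (adjusted p = 0.00313, 1.36e-05, 1.09e-07 and 6.04e-05). Those of CHAF1A were 2.02 ± 0.28 at 24 h and 1.55 ± 0.28 at 48 h (adjusted p = 8.39e-07 and 0.000293). UHRF1, which recruits the maintenance methyltransferase to hemimethylated DNA, was at 0.365 to 3.46 CPM (median 1.18) in the controls, 16.1, 9.86, 33.7 and 15.4 CPM at 24 h and 32.2, 2.81, 15.8 and 1.83 CPM at 48 h. At 48 h replicates 1 and 3 lay above the controls and replicates 2 and 4 inside their range. UHRF1 changed on the log2 scale by 3.51 ± 0.54 at 24 h and 3.02 ± 0.54 at 48 h (adjusted p = 4.27e-06 and 0.00024). UHRF1 overlaps ARRDC5.

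Of the regulators of S-phase entry, E2F1 rose and CCNE2 did not. E2F1 (chr17:37178587-37190118), an activator of replication genes, was at 0.0913 to 1.96 CPM (median 0.453) in the controls, 4.49, 2.90, 7.86 and 3.93 CPM at 24 h and 8.22, 1.15, 6.71 and 0.869 CPM at 48 h. The 24 h libraries and 48 h replicates 1 and 3 lay above the controls, and 48 h replicates 2 and 4 inside their range. Its log2 change was 1.23 ± 0.60 at 16 h (adjusted p = 0.0857), 2.93 ± 0.56 at 24 h and 2.78 ± 0.57 at 48 h (adjusted p = 7.06e-05 and 0.000862). CCNE2, a cyclin of the CDK2 kinase at the G1 to S transition, was at 1.76 to 5.33 CPM (median 3.89) in the controls, 1.27, 1.04, 1.51 and 2.87 CPM at 8 h, 1.27, 0.889, 1.52 and 1.37 CPM at 16 h, 3.98, 3.96, 5.72 and 4.50 CPM at 24 h and 7.72, 1.88, 4.01 and 2.90 CPM at 48 h. Every 16 h library lay below every control. It fell by 1.12 at 8 h and 1.51 at 16 h on the log2 scale (adjusted p = 0.00749 and 0.000651), and its changes of 0.33 ± 0.31 at 24 h and 0.21 ± 0.31 at 48 h were not called (adjusted p = 0.387 and 0.686). With the 5 library sets in the fit, the 8 h call of CCNE2 was lost (-0.85, adjusted p = 0.0728). CCNE2 overlaps INTS8.

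The 5 genes of fork protection and repair also divided. FANCD2, the Fanconi anaemia protein that guards stalled forks, was at 1.10 to 4.55 CPM (median 2.83) in the controls, 8.39, 7.07, 8.46 and 9.93 CPM at 20 h, 9.05, 7.11, 12.6 and 7.85 CPM at 24 h and 20.0, 2.92, 11.5 and 0.869 CPM at 48 h. FANCD2 was at 4.57, 6.32, 5.85 and 4.72 CPM at 4 h, all above every control, although it was not called there. Its 48 h replicates reached from below the lowest control in replicate 4 to above the highest in replicates 1 and 3. The log2 change was 1.66 ± 0.38 at 20 h, 1.77 ± 0.38 at 24 h and 1.74 ± 0.38 at 48 h (adjusted p = 0.000601, 0.000261 and 0.00167). Without 48 h replicate 1 the 48 h change was 0.93 (adjusted p = 0.16), limma-voom gave 1.28 (adjusted p = 0.0632), and a fit of only the groups compared gave 1.74 (adjusted p = 0.0526). TIMELESS, a member of the fork protection complex, was at 1.35 to 4.69 CPM (median 1.81) in the controls, 6.01, 4.44, 8.15 and 5.37 CPM at 24 h and 9.44, 1.67, 4.40 and 1.83 CPM at 48 h, and rose at 20, 24 and 48 h (adjusted p = 0.0383, 0.000716 and 0.0372). RPA2, a subunit of the single-strand binding protein, was at 8.31 to 27.3 CPM (median 16.5) in the controls, 11.7, 10.4, 8.98 and 15.3 CPM at 8 h, 10.2, 9.08, 13.5 and 16.0 CPM at 16 h, 23.4, 28.6, 28.8 and 26.0 CPM at 24 h and 39.5, 22.7, 33.0 and 17.2 CPM at 48 h. The changes were -0.64 ± 0.23, -0.56 ± 0.23, 0.56 ± 0.22 and 0.64 ± 0.22 at these times (adjusted p = 0.0217, 0.0398, 0.0293 and 0.0355). The falls of RPA2 did not hold: at 16 h its change was 0.023 with the 5 library sets in the fit and 0.12 against set 1 controls, and at 8 h it was not called without replicate 2 or 3 (adjusted p = 0.0675 and 0.0893) or with the 5 sets (adjusted p = 0.401).

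CLSPN, which encodes claspin, the adaptor of the replication checkpoint, was at 3.22 to 10.3 CPM (median 5.82) in the controls, 2.53, 2.34, 2.02 and 4.75 CPM at 8 h and 18.8, 6.77, 9.65 and 5.50 CPM at 48 h. It fell at 8 h by 1.08 on the log2 scale (adjusted p = 0.00439), a call lost with the 5 library sets in the fit (-0.72, adjusted p = 0.0595). Its changes of 0.62 ± 0.28 at 24 h and 0.75 ± 0.28 at 48 h were not called (adjusted p = 0.0579 and 0.0536). BRCA1, a repair factor of stalled forks, was at 7.67 to 16.5 CPM (median 12.1) in the controls, 5.42, 5.73, 4.87 and 7.39 CPM at 8 h, 7.89, 8.51, 7.99 and 9.62 CPM at 16 h, 10.2, 9.17, 13.7 and 8.79 CPM at 24 h and 15.9, 8.33, 10.9 and 13.5 CPM at 48 h. All 8 h libraries lay below every control. It fell by 1.02 at 8 h and 0.48 at 16 h on the log2 scale (adjusted p = 7.54e-05 and 0.0323), and changed by -0.18 ± 0.18 and 0.04 ± 0.18 at 24 and 48 h, which was not called (adjusted p = 0.414 and 0.905). The 16 h call of BRCA1 was lost without control replicate 3 or 9 or 16 h replicate 1, 2 or 3 (adjusted p = 0.056 to 0.0881), with scaling by column totals (adjusted p = 0.624), with the 5 sets (adjusted p = 0.451) and with set 1 controls (adjusted p = 0.426). FANCD2, CLSPN and BRCA1 overlap EMC3, AGO4 and NBR1. In all, 14 of the 37 measured members with a RefSeq locus overlap another gene.

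The 4 libraries of 48 h stood far apart from each other. The median over the 38 members of log2(CPM + 0.5) minus the control mean was 1.66 in replicate 1, 0.33 in replicate 2, 0.94 in replicate 3 and 0.11 in replicate 4. The same median was 1.36, 1.21, 1.46 and 1.43 in the 24 h libraries, and lay between -0.28 and 0.18 in the controls. Of the 38 members, 35 lay above all controls in replicate 1, 13 in replicate 2, 26 in replicate 3 and 3 in replicate 4, where 28.2%, 6.82%, 23.3% and 6.04% of all genes did. At 24 h the count was 28 to 34 in each library. Replicate 1 held the highest 48 h value for 36 of the 38 members, and replicate 4 the lowest for 25.

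The 48 h result therefore depended on which libraries entered it. Without replicate 1, 12 of the 27 calls were kept, and without replicates 2 and 4 together 29 members were called. With only the controls and 48 h libraries in the fit, 17 were called. Against the 3 controls of the same library set, 0 members and 0 of all genes were called by edgeR, although 15 members had an unadjusted p under 0.05. In that comparison of 4 libraries with 3, the log2 change was 2.85 for MCM3, 2.85 for MCM4, 2.94 for MCM2 and 5.34 for POLE (adjusted p = 0.432 for each). At 16 h, set 1 controls left 7 members higher and 3 lower, all 10 of them among the 16 called against all controls. Leaving out 16 h replicate 1 or 2 left 10 and 9 calls.

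**Figure D4:**
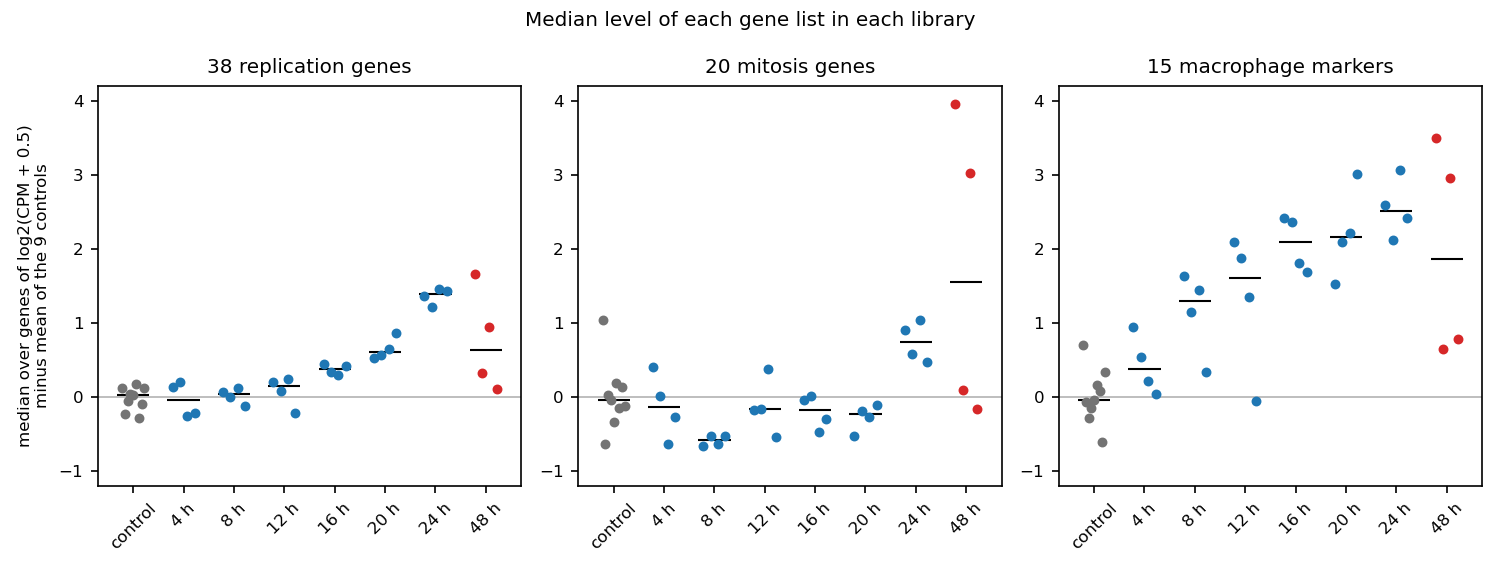
Median over the genes of a list of log2(CPM + 0.5) minus the mean of the 9 controls (y axis), one point per library by group (x axis), for the 38 replication genes, 20 mitosis genes and 15 macrophage markers, with a line at each group's median. At 24 h the replication median lies between 1.21 and 1.46 in all 4 libraries, and at 48 h replicates 1 and 3 stand high and replicates 2 and 4 low in all 3 panels.

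Markers of other cells also changed, and several were called at times when few replication genes were. Among all genes, 25.8%, 16.3%, 25.3%, 25.4%, 26.8% and 12.8% rose at 8, 12, 16, 20, 24 and 48 h. At those times 28.2%, 14.7%, 27.8%, 26.2%, 27.1% and 7.45% fell, and 18.3% were called in either direction at 4 h. Of 15 macrophage markers, 3, 9 and 9 rose at 4, 8 and 12 h, with median log2 changes of 0.77, 1.83 and 1.80. At 16, 20 and 24 h 12 rose, and at 48 h 14, with medians of 2.42, 2.37, 2.65 and 2.55. Their summed level was 81.6 to 227 CPM in the controls, 560.2 to 2213 CPM at 24 h, and 2241, 294, 1406 and 214 CPM in 48 h replicates 1 to 4. The muscle fibre genes ran the other way: 79451 to 142970 CPM in the controls, 32720 to 54577 CPM at 24 h, and 29873, 108647, 43951 and 80152 CPM in the 48 h libraries. Replicate 1 of 48 h, with the highest replication genes, thus had the highest macrophage and the lowest muscle fibre level of that time. Of the 8 satellite cell and myoblast genes tested, VCAM1 and PAX7 rose and DES fell at 4 h. At 8 h MYOD1 rose and MYOG fell, and at 12 h DES fell. At 16 h VCAM1 rose and DES fell. At 20 h VCAM1, NCAM1 and CHRNA1 rose and MYOD1 and DES fell. At 24 h VCAM1, MYOD1, NCAM1 and MYOG rose and CDH15 and DES fell. VCAM1, MYOD1, NCAM1 and CHRNA1 rose at 48 h. All 6 neutrophil markers tested rose at 8 h, with a median log2 change of 4.46, the highest of the 7 times. Of these 6, 4 rose at 12 h, 5 at 16 and 20 h, 4 at 24 h and 1 at 48 h. Of the 8 endothelial genes CDH5 alone rose, at 16 h, while VWF and TEK fell at 8, 12 and 16 h, TEK and ESAM at 20 h, and TEK, ESAM and ERG at 24 h. Of the 11 fibroblast genes THY1 rose at 4 h and PDGFRA at 8, 16 and 24 h, and 7, 1, 3, 7 and 3 fell at 8, 12, 16, 20 and 24 h. Neither list had a call at 48 h. The endothelial falls at 8, 16 and 20 h and the fibroblast falls at 16 and 24 h were near the shares of all genes. The 3 macrophage calls at 4 h were also near the share there. Single rises in the endothelial and fibroblast lists after 4 h, and the satellite cell counts at 8, 12 and 16 h, did not exceed those shares. NKG7, the one lymphocyte marker measured, rose at 8, 12, 16, 20, 24 and 48 h. Of 3 erythroid genes tested, ALAS2 and HBB rose at 16 h, and TFRC fell at 8, 12, 16, 20 and 24 h. The part of these cells in the changes of the replication genes was not tested.

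The mitosis genes, which act after S phase, were called mainly at 48 h. Of 20 tested, 6 rose at 24 h (NUF2, CDK1, KIF11, ANLN, TOP2A and MAD2L1), near the 26.8% of all genes that rose, with a median log2 change of 0.93 over the list, and 19 rose at 48 h (12.8% of all genes), with a median of 3.12. Earlier, CENPF, TOP2A, AURKB and MAD2L1 fell at 8 h (28.2% of all genes fell), with a median log2 change of -0.92 over the list. At 16 h NUF2 rose and MAD2L1 fell. At 20 h none of the 20 rose and AURKB fell. Their summed level was 25.7 to 74.0 CPM in the controls, 66.1 to 109.9 CPM at 24 h, and 579, 47.6, 299.8 and 35.5 CPM in the 48 h libraries, so that replicates 2 and 4 stood inside the control range. The limit of at least 101 counts in some library applies to these low genes too, so their late rise may be partly set by it. How many of the 20 entered only through late libraries was not counted. At 48 h PLK1, a mitotic kinase, changed by 3.28 ± 0.53, TOP2A, the topoisomerase that untangles chromosomes, by 3.19 ± 0.52, CCNB1, the mitotic cyclin, by 3.43 ± 0.56 and ANLN, a scaffold of the cleavage furrow, by 2.30 ± 0.39.

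A direct comparison of 48 h with 24 h called 12 of the 20 mitosis genes higher (median log2 change 1.78) and 1 replication gene higher, DUT (10.2% of all genes rose). It called MCM7 and RFC3 lower (9.22% of all genes fell). The log2 change from 24 to 48 h was 0.80 ± 0.25 for DUT, -0.68 ± 0.21 for MCM7 and -0.69 ± 0.20 for RFC3 (adjusted p = 0.021, 0.0183 and 0.0141), and the median of the 38 was -0.21 against 0.04 for all genes. These calls were few and unstable: 13 members were lower without 48 h replicate 1, 1 was called without 48 h replicate 4, and with scaling by column totals 0 were higher and 1 lower.

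Comparisons of neighbouring times, added after the time course had been seen, called 0 to 2 members in each direction. From 12 to 16 h MCM2 and MCM4 rose (4.72% of all genes rose) by 1.99 ± 0.55 and 1.46 ± 0.47, and RRM1 and RFC3 fell (9.51% fell) by 0.51 and 0.68 on the log2 scale (adjusted p = 0.0158, 0.0343, 0.0424 and 0.0237). With column totals the split was 5 higher and 0 lower, and leaving out single libraries gave 0 to 5 calls, with 0 without 12 h replicate 4, 1 without 16 h replicate 1 or 2, and 2 without 12 h replicate 2 or 3. With the 5 library sets in the fit 0 were called, and 0 of all genes. From 16 to 20 h RFC3 rose (1.01% of all genes rose) by 0.73 ± 0.20 (adjusted p = 0.0462) and none fell (1.15% fell; 0 at an unadjusted p under 0.05, and 0 by DESeq2 and limma-voom), and the call was lost without any one of the 8 libraries. From 20 to 24 h TYMS rose (1.93%) by 2.58 ± 0.71 (adjusted p = 0.0387) and none fell (1.28%; 0 at an unadjusted p under 0.05, and 0 by DESeq2 and limma-voom). TK1 had a change of 2.01 ± 0.59 in that interval and was not called (adjusted p = 0.0519). The TYMS step was lost without 20 h replicate 1, 2 or 3 or 24 h replicate 2, 3 or 4, with 0 calls each. Over these 3 intervals in turn, 30, 32 and 34 of the 38 members changed upward, called or not. Their median log2 changes were 0.28, 0.43 and 0.58, against -0.007, 0.03 and -0.001 for all genes. The share of all genes that changed upward was not counted.

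Lists of other genes of the same processes were counted beside the 38. The limit of at least 101 counts in some library holds for each list too, and entry only through late libraries was not counted. Of all genes, 25.8%, 16.3%, 25.3% and 25.4% rose at 8, 12, 16 and 20 h. At 24 h 26.8% rose and 27.1% fell, and at 48 h 12.8% rose and 7.45% fell. At 4 h 18.3% were called in either direction. Of 24 other replication factors tested, 11 rose and 4 fell at 24 h, and 4 rose at 48 h, among them PRIM2, the large primase subunit, by 1.10 ± 0.27, and CHTF18, part of an alternative clamp loader, by 1.38 ± 0.36. WDHD1 and ATAD5 were the others, and 4 of 24 at 48 h is near the share of all genes. Of 9 genes of S-phase chromatin and histone supply, 7 rose at 24 h and 4 at 48 h, where the histone chaperone ASF1B changed by 3.39 ± 0.64 and ZNF367, HELLS and HMGB2 by 1.68, 1.14 and 1.08. In this list RBBP7 fell at 8 and 16 h, ZNF367 at 8 h and ASF1A at 16, 20 and 24 h. None fell at 48 h against control, and HAT1 and NASP fell from 24 to 48 h. Of 17 further genes of nucleotide synthesis, 5, 7 and 6 rose at 4, 8 and 12 h, 9, 9 and 11 at 16, 20 and 24 h, and 4 at 48 h (SHMT2, IMPDH1, PAICS and MTHFD2, by 0.45 to 0.86). RRM2B fell at 8, 16 and 20 h and DTYMK at 4, 20 and 24 h, and SHMT1 at 4 h.

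Of 24 regulators of the G1 to S transition, 8 rose and 6 fell at 24 h, shares near the 26.8% and 27.1% of all genes, and 6 rose and 2 fell at 48 h (12.8% and 7.45% of all genes). MYBL2, a factor of late cell cycle transcription, changed by 2.99 ± 0.46 at 48 h, DTL, which directs the degradation of CDT1, by 2.70 ± 0.53, E2F8, a repressor of the E2F family, by 3.19 ± 0.70, and CDKN1A, the CDK inhibitor p21, by 1.76 ± 0.41. RB1 and E2F6 fell at 48 h. Of 15 further genes of fork protection and repair, 3, 4, 12 and 4 rose at 16, 20, 24 and 48 h. None fell at these times. The counts at 16 and 20 h are near the 25.3% and 25.4% of all genes that rose. Among those that rose at 48 h were the checkpoint kinases CHEK2, by 2.12 ± 0.45, and CHEK1, by 1.61 ± 0.47.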

How the data were processed

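RNA of flash-frozen skeletal muscle was made into NEBNext Ultra libraries and read as 150 bp pairs, per the labels' protocols. Per the submitters' processing notes, the tools included HISAT2 2.2.1 and HTSeq, besides Trimmomatic, FastQC and MultiQC, with the build Sscrofa11.1; the sources used here give neither annotation release nor strand setting. The values are raw counts per gene that the authors deposited as 1 table of 9418 genes by 37 libraries. Every gene reaches at least 101 counts in some library, so the 9.86 to 22.9 M per column are not depth. Libraries of a group always differed by more than sampling noise (lowest chi-square per degree of freedom 16.1).

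Libraries were grouped by title into 9 controls and 7 times of 4. The package edgeR 4.0.16 (limma 3.58.1, R 4.3.3) scaled the counts by TMM, kept 9411 genes (filterByExpr) and fitted robust quasi-likelihood models to all libraries with group as the factor. Benjamini-Hochberg adjustment ran over all genes, with a threshold of 0.05. The SE is the absolute log2 change divided by the square root of F. Plotted levels are log2(CPM + 0.5). The fits were tested on simulated counts. Loci and overlaps are from RefSeq on Sscrofa11.1, which held 37 of the 38 members. Members, gene lists, library sets, tests and naming rule were chosen with earlier results of these data known. Named in full were up to 16 members called at 48 h by smallest adjusted p, every member called lower, at each earlier time up to 4 called members by smallest adjusted p, and up to 4 genes of each list at 48 h, of which some in the fork protection list are not reported here. The other members follow in less detail. Alternatives were size factors, limma-voom, DESeq2 1.42.0, other filters, a replicate block, library sets (column total over 20 M, C1QBP over 8 CPM, NDUFAF8 under 4 CPM, ND6 up to 32 CPM, the rest), fewer libraries and leaving out each library. The comparisons of neighbouring times up to 24 h and of same-set controls at 16 and 20 h were added after the data were seen.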

Additional observations from a re-analysis of the deposited data

Results flagged for a closer look

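Single libraries stood apart from their group in 4 of the 83 tests for an outlier, and chance flags about 1 in 20. Tested were the controls, 24 h and 48 h for each of 25 named genes, and the median over all members in each group. Control 1 had the highest MCM2 of the controls, 7.54 CPM against 2.64 CPM in the next, and the highest E2F1, 1.96 CPM against 0.922 CPM. Control 2 had the highest DUT of the controls, 53.9 CPM against 36.9 CPM. Replicate 3 of 24 h had 46.0 CPM of RRM1 against 33.4 CPM in the next library of that time.

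Some members differed between neighbouring or late times by the test of the difference itself. From 12 to 16 h the log2 change was 1.99 for MCM2, 1.46 for MCM4, -0.51 for RRM1 and -0.68 for RFC3. RFC3 changed by 0.73 from 16 to 20 h, and TYMS by 2.58 from 20 to 24 h. From 24 to 48 h the change was -0.68 for MCM7, -0.69 for RFC3 and 0.80 for DUT. The RFC3 change from 16 to 20 h was no longer called when any one of the 8 libraries was left out. With the 5 library sets in the fit none of these calls was kept. Among all genes 4.72% rose and 9.51% fell from 12 to 16 h, and 10.2% rose and 9.22% fell from 24 to 48 h. From 16 to 20 h 1.01% rose, and from 20 to 24 h 1.93% rose.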

How the results depend on the processing

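Counts of members called against control were, by setting, as follows. With the 5 library sets as a term they were 1, 4, 5 and 7 at 4, 8, 12 and 16 h, and 0 for 48 against 24 h, 16 against 12 h, 20 against 16 h and 24 against 20 h. With only the groups compared in the fit they were 1 at 4 h, 1 at 12 h, 17 at 48 h, 0 for 48 against 24 h and 5 for 24 against 20 h. Scaling by column totals gave 1 at 12 h, 1 for 48 against 24 h and 0 for 20 against 16 h and 24 against 20 h, and RLE size factors 0 for 20 against 16 h. DESeq2 gave 5 at 12 h, 6 for 48 against 24 h, 2 for 20 against 16 h and 3 for 24 against 20 h. Limma-voom gave 6 for 48 against 24 h and 2 for 16 against 12 h and for 20 against 16 h. Same-set controls gave 10 at 16 h and 0 at 48 h. Leaving out 1 library at a time gave 0 to 3, 6 to 9, 2 to 4 and 9 to 16 calls at 4, 8, 12 and 16 h, 19 to 24, 30 to 33 and 12 to 28 at 20, 24 and 48 h, 36 to 38 over the 7 times, 1 to 13 for 48 against 24 h, 0 to 5 for 16 against 12 h, 0 to 0 for 20 against 16 h and 0 to 1 for 24 against 20 h. The highest count at 4 h came without 4 h replicate 1 and the highest at 12 h without control replicate 6. The cause of these differences was not tested. Of 43 results for single members, the direction was reversed once, for RPA2 at 16 h (0.023 with the 5 sets, 0.12 with set 1 controls). Over 559 values with 1 library left out, 532 kept direction and call, 27 lost the call and 0 turned. With set 5 controls all 16 named 48 h changes lost the call.

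The replicate numbers showed no clear pairing of the libraries. Deviations of same-numbered libraries correlated with a median of 0.0427, from -0.604 to 0.601 over 112 pairs. The median for different numbers was -0.0138. These correlations cannot tell whether libraries share an animal. With a replicate block 6 members were called for 48 against 24 h and 2 for 24 against 20 h, and 11, 20, 32 and 24 at 16, 20, 24 and 48 h. The 8 h call of CDC45 was lost with the block (1.33, adjusted p = 0.0521), as were those of RPA2 at 8 and 16 h, RFC3 at 12 h and BRCA1 at 16 h. Directions hold on the TMM scale: with column totals the median of all genes shifted at 4, 16, 20, 24 and 48 h by -0.15, 0.35, 0.33, 0.48 and 0.35 on the log2 scale, and for 16 against 12 h, 24 against 20 h and 48 against 24 h by 0.37, 0.15 and -0.11. POLE, CHAF1B, TYMS and MCM10 rest on at most 18 counts in any control library, which limits the precision of their folds. They are in the table only through 24 or 48 h libraries where they were high. E2F1, ORC1, ORC6, GINS1, GINS3, GINS4, TK1, TIMELESS and CCNE2 also reached the limit for entry only in 24 or 48 h libraries.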
